A study of Mus musculus with 10 samples.

Results

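The 9 genes described here, Mat1a, Mat2a, Gnmt, Bhmt, Bhmt2, Cbs, Ahcy, Pemt and Nnmt, encode enzymes of the hepatic methionine cycle and of methyl group metabolism. They were taken by gene name, each matched to a single row, from the 54532 genes in the expression table of the study. The samples were livers of 10 mice, 5 with the genotype ASK1f/f and 5 with the genotype ASK1+hep according to their labels, all after 7 weeks of a high-fat diet (HFD). ASK1f/f mice, the controls, were littermates homozygous for a murine ASK1 cDNA placed in the ROSA26 locus behind a stop cassette flanked by loxP sites, without Cre. ASK1+hep mice carried the same construct together with Alb-Cre, so that Cre driven by the albumin promoter removed the stop cassette in hepatocytes. All mice were on a C57BL/6J background, and according to the methods of the study HFD was started at the age of 6 weeks and food was withdrawn for 5 h before the end. Bulk RNA was sequenced, so that a change in the number of cells of a type and a change in the RNA per cell cannot be told apart.

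Methionine adenosyltransferases join methionine and ATP to S-adenosylmethionine (SAM), the methyl donor of nearly all cellular methylation. Methyltransferases use SAM and release S-adenosylhomocysteine, which is split into adenosine and homocysteine. In the liver, homocysteine is either methylated back to methionine, with betaine or a folate as the donor, or passed on to cysteine by transsulfuration. Hepatocytes are the main site of this metabolism in the body, and several of its enzymes are nearly limited to liver and kidney.

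Libraries held 13367742 to 16163378 reads on genes, and values are FPKM, that is, reads normalised to gene length and sequencing depth. The 2 genotypes were set against each other by limma, on log2(FPKM + 1), for the 13306 genes that reached 10 depth-scaled reads in 5 or more livers and 15 reads over all livers. All 9 genes were among them, with 47 to 77951 reads per liver. Map3k5, which encodes ASK1, had 4.71 to 6.88 FPKM in control replicates 1 to 4 and 7.68 to 16.4 FPKM in ASK1+hep livers. The library labelled ASK1f/f replicate 5 went against its label, since its Map3k5 level of 19.8 FPKM was the highest of all, whereas its level of Fgf21, which encodes a hormone secreted by the liver, was 3.21 FPKM and lay within the 2.46 to 4.74 FPKM of its group and below the 7.40 to 30.1 FPKM of the ASK1+hep livers. The library labelled ASK1+hep replicate 3 stood apart from the others, with a median Pearson correlation of 0.961 with the other 9 libraries over the genes tested, against 0.981 to 0.985 for the rest. Sample titles begin with SN for replicate 1 of both genotypes and with CC for the other 8 mice, and the labels do not say what these letters stand for. The defining hepatocyte markers summed to 30564 to 47976 FPKM per liver.

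Over all genes tested, 0 of 13306 reached an adjusted p at or below 0.05 (limma, Benjamini-Hochberg), which is 0% of the genes, and 768 had an unadjusted p under 0.05, which is 5.77% of the genes. Limma-voom on the reads recovered from the FPKM also called 0 genes, and with sample quality weights it called 1. Of the 9 methionine cycle genes, 0 passed the adjusted threshold and 2, Bhmt and Bhmt2, had an unadjusted p under 0.05, both with lower values in ASK1+hep livers. Among the 9 genes 5 had a lower and 4 a higher mean of log2(FPKM + 1) in ASK1+hep livers, with a median log2 difference of -0.0012, next to -0.0065 over all genes tested. Of all genes tested, 52.0% had a lower mean. The groups did not overlap for 0 of the 9 genes over all 10 livers, and for 0.864% of all genes tested.

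**Figure D1:**
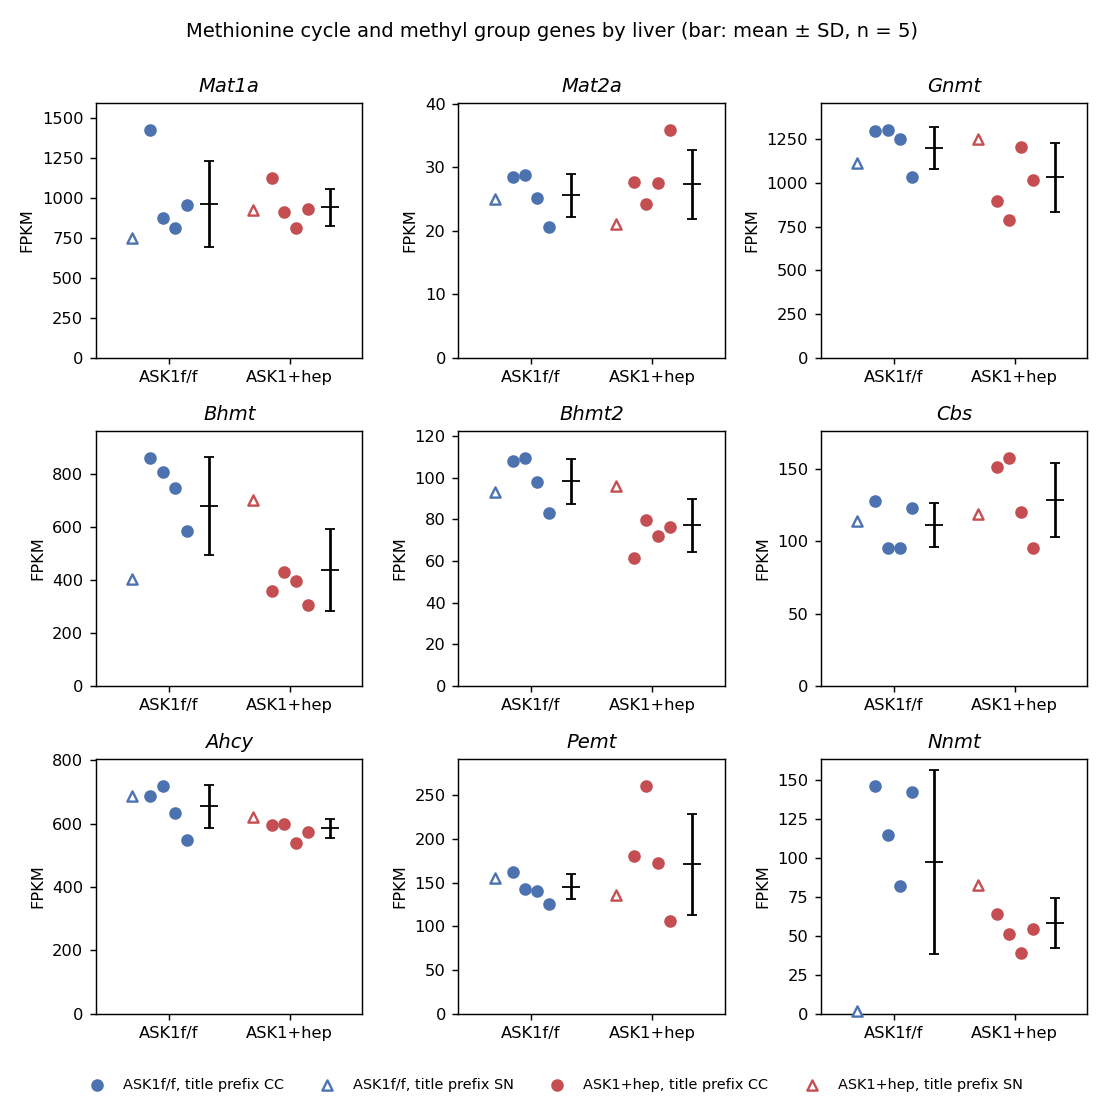
FPKM of the 9 genes in each of the 10 livers (y axis, linear from 0) by genotype (x axis). Filled circles are livers with a CC title, open triangles those with an SN title, and the bars give the mean ± SD of 5 livers. Bhmt and Bhmt2 sit lower in 4 of the 5 ASK1+hep livers than in the CC-titled controls, and the Nnmt triangle at 1.79 FPKM lies near 0.

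The genes differed widely in level. Gnmt had the highest mean, 1117 ± 178 FPKM (SD, n = 10), which placed it 53rd of the 13306 genes tested. Mat1a followed with 951 ± 195 FPKM, Ahcy with 620 ± 61.1 FPKM and Bhmt with 559 ± 206 FPKM. Much lower were Pemt with 158 ± 42.0 FPKM, Cbs with 120 ± 22.0 FPKM, Bhmt2 with 87.8 ± 15.8 FPKM and Nnmt with 77.9 ± 45.8 FPKM. Mat2a had the lowest mean, 26.4 ± 4.37 FPKM, and ranked 1568th. Since FPKM are scaled by gene length, these levels can be set side by side, apart from reads shared with copies of a gene. The order was firm at the step from Bhmt to Pemt, where the ranges over livers did not touch, and Pemt exceeded Cbs in 10 of 10 livers. The ranges of Mat1a and Ahcy did not touch either. With the reads of 2 near copies added, however, Ahcy had a control mean of 774 ± 78.6 FPKM (SD, n = 5). This is above the lowest Mat1a value of 749 FPKM, so that step depends on how shared reads were counted. Gnmt exceeded Mat1a in 7 livers and Ahcy exceeded Bhmt in 5, so these neighbours did not differ beyond their spread. The same was true of Cbs and Bhmt2, in this order in 8 livers, and of Bhmt2 and Nnmt, in this order in 6. Together the 9 genes took up 0.866% to 1.45% of all reads on genes in a liver.

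How much a gene varied within a genotype also differed. The within-genotype SD on the log2(FPKM + 1) scale was lowest for Ahcy, at 0.12, and reached 0.35 for Pemt and 0.45 for Bhmt, against a median of 0.19 over all genes tested. Bhmt was thereby more variable than 92.6% of the genes tested, and Ahcy more variable than 18.5%. Nnmt, with an SD of 1.75, was more variable than 99.9% of them. This SD rests largely on a single liver, ASK1f/f replicate 1, at 1.79 FPKM against 39.1 to 146 FPKM in the other livers.

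Mat1a (ENSMUSG00000037798) encodes the methionine adenosyltransferase of the adult liver. It lies on chromosome 14 (plus strand, 41105035 to 41124412, coordinates here and below on GRCm38), and its longest coding transcript has 10 exons. Mat1a was at 749, 1422, 872, 813 and 952 FPKM in control replicates 1 to 5. In ASK1+hep replicates 1 to 5 it was at 924, 1126, 912, 811 and 931 FPKM. The control replicate 2 was the highest of the 10 livers, and the ranges of both genotypes overlapped almost throughout. The log2 difference (ASK1+hep minus ASK1f/f) was -0.0012 with a 95% confidence interval of -0.42 to 0.41 (limma), which leaves room for a moderate difference in either direction.

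Mat2a (ENSMUSG00000053907, chromosome 6, minus strand, 72432799 to 72439558, 9 exons) encodes the catalytic subunit of the enzyme used by other tissues and by growing or dedifferentiated hepatocytes. Its values were 24.9, 28.4, 28.8, 25.1 and 20.6 FPKM in control and 21.1, 27.7, 24.3, 27.5 and 35.8 FPKM in ASK1+hep livers. Apart from ASK1+hep replicate 5, each ASK1+hep liver lay within the control range. Its log2 difference was 0.08 (95% interval -0.24 to 0.40). The Mat2a level amounted to 2.00% to 3.85% of the Mat1a level in the same liver, with 2.77 ± 0.644% in control and 2.93 ± 0.666% in ASK1+hep livers (SD, n = 5 each). Hence the liver form dominated in all 10 livers, and the share of the other form overlapped between genotypes.

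Gnmt (ENSMUSG00000002769, chromosome 17, minus strand, 46725664 to 46729168, 6 exons) encodes glycine N-methyltransferase, which spends SAM on glycine to form sarcosine and keeps the SAM level in check. Its level was 1117, 1299, 1302, 1252 and 1037 FPKM in control and 1253, 899, 789, 1210 and 1016 FPKM in ASK1+hep livers. ASK1+hep replicates 2, 3 and 5 lay below each of the control livers and replicates 1 and 4 among them. On the log2 scale the groups differed by -0.23 (95% interval -0.61 to 0.14, limma adjusted p = 0.814), and without ASK1+hep replicate 3 by -0.14.

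Ahcy (ENSMUSG00000027597, chromosome 2, minus strand, 155059310 to 155074497, 10 exons) encodes the hydrolase that removes S-adenosylhomocysteine, the inhibitory product of methylation. It was at 687, 689, 718, 633 and 547 FPKM in control and at 621, 595, 598, 540 and 575 FPKM in ASK1+hep livers. Here 4 controls lay above all ASK1+hep livers, while the library labelled ASK1f/f replicate 5 was the second lowest of the 10. The difference was small, -0.15 on the log2 scale (95% interval -0.43 to 0.12, limma), and the exact permutation test (two-sided) gave p = 0.0714. Of the 50-base stretches of Ahcy transcripts 68.7% also occur in another annotated gene, mainly Gm4737 and Gm9826, so its level depends on how shared reads were counted. With the reads of both copies added, which were 9.55% to 16.2% of the sum, the log2 difference was -0.19.

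The remethylation genes Bhmt and Bhmt2 were the 2 of the 9 with an unadjusted p under 0.05 (limma). Bhmt (ENSMUSG00000074768, chromosome 13, minus strand, 93616675 to 93637961, 8 exons) encodes betaine-homocysteine methyltransferase, which uses betaine from choline to turn homocysteine into methionine. Bhmt was at 402, 860, 808, 746 and 585 FPKM in control replicates 1 to 5. In ASK1+hep replicates 1 to 5 it was at 701, 359, 429, 395 and 305 FPKM. Within each genotype replicate 1 was the exception, since it was the lowest control and by far the highest ASK1+hep liver. ASK1+hep replicate 3 also lay above the lowest control. The group means were 680 ± 187 and 438 ± 154 FPKM (SD, n = 5 each), a ratio of 0.644. The log2 difference was -0.64 ± 0.26 (SE, 95% interval -1.21 to -0.08, limma adjusted p = 0.812), and the exact permutation test gave p = 0.0635. Without the library labelled ASK1f/f replicate 5 the difference was -0.69, and without ASK1+hep replicate 3 it was -0.65. The unadjusted p of limma no longer stayed under 0.05 when ASK1f/f replicate 2, 3 or 4 or ASK1+hep replicate 2, 4 or 5 was left out, with differences of -0.62 to -0.53.

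Bhmt2 (ENSMUSG00000042118, chromosome 13, minus strand, 93655720 to 93674302, 8 exons) encodes a related enzyme that takes its methyl group from S-methylmethionine. Its level was 93.2, 108, 109, 98.2 and 83.2 FPKM in control livers. In ASK1+hep livers it was 96.3, 61.4, 80.0, 71.9 and 76.2 FPKM. ASK1+hep replicate 1 lay within the control range, and the other 4 lay below all 5 controls. The means were 98.4 ± 10.8 and 77.2 ± 12.7 FPKM (SD, n = 5 each), a ratio of 0.784. The log2 difference was -0.35 ± 0.13 (SE, 95% interval -0.65 to -0.06, limma adjusted p = 0.812), and the exact permutation test gave p = 0.0238, where 0.00794 is the smallest p that 5 against 5 livers allow. Without the library labelled ASK1f/f replicate 5 it was -0.41, and without ASK1+hep replicate 3 it was -0.37. Leaving out ASK1f/f replicate 2 or 3 or ASK1+hep replicate 2 took the unadjusted p of limma above 0.05, with differences of -0.32 to -0.28. Bhmt2 amounted to 12.6% to 25.0% of the Bhmt level in the same liver, with 15.3 ± 4.43% in control and 18.5 ± 4.10% in ASK1+hep livers.

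**Figure D2:**
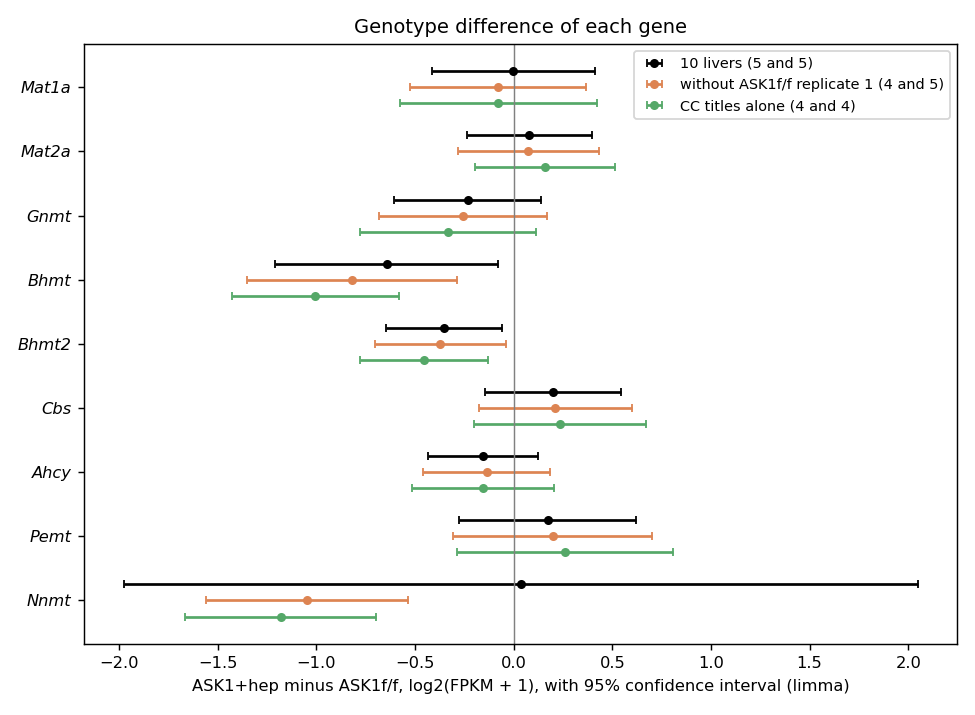
Genotype difference of each gene on the log2(FPKM + 1) scale (x axis, ASK1+hep minus ASK1f/f) with its 95% confidence interval from limma, for all 10 livers, without ASK1f/f replicate 1, and for the 8 livers with CC titles. The set of 8 livers was chosen after the values had been seen. Both smaller sets leave out ASK1f/f replicate 1, the control with the lowest Nnmt and Bhmt values, and are not separate support for a difference. The intervals of Bhmt and Bhmt2 lie below 0 in each of the 3 sets, whereas that of Nnmt spans -1.98 to 2.05 in all livers and lies below 0 in the other 2 sets.

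Bhmt and Bhmt2 are neighbours, 17758 bases apart and transcribed in the same direction. On the other side of Bhmt2, 130 bases from its start and read in the opposite direction, begins Dmgdh (93674433 to 93752833, plus strand), which encodes the mitochondrial dehydrogenase that degrades dimethylglycine, the product that betaine leaves behind in the Bhmt reaction. The 130 bases between the starts of Bhmt2 and Dmgdh, and the 47 bases just before the annotated start of Bhmt, are shown because these 3 genes had lower values together. Both are RefSeq sequences of GRCm38.p6, and the capitals mark the motif matches found in them.
Bhmt2 to Dmgdh, chr13:93674303-93674432, plus strand: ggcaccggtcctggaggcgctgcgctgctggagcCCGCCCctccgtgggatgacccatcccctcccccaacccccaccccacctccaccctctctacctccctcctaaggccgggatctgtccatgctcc
before Bhmt, chr13:93637962-93638008, minus strand: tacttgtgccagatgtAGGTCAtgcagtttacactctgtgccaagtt

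The stretch shared by Bhmt2 and Dmgdh was 70.8% G and C and that before Bhmt 44.7%. Both strands were searched for 6 motifs, namely the AP-1 site (TGANTCA), a composite C/EBP and ATF element (TGATGCAA), the core element of many nuclear receptor sites (AGGTCA), the E-box (CACGTG), the TATA box (TATAAA) and the GC box (GGGCGG). No match overlapped another. The shared stretch held 1 match, a GC box on the minus strand that starts at position 35, counted from 1 at the left end, and 27.3% of promoter windows of the same length held one. The stretch before Bhmt held 1 match, the receptor element AGGTCA at position 17. Of windows with the same length directly before a RefSeq start, 2.55% contain one. RefSeq places the start of Bhmt inside the annotated gene, however. The stretch shown therefore does not lie directly before the RefSeq start, and this share is not from windows of the same kind. RefSeq promoter windows were found for 7 of the 9 genes, Mat1a and Nnmt being without one. Within the 250 bases before the RefSeq start, AGGTCA occurred 3 times for Bhmt and 1 time each for Gnmt and Ahcy, and 14% of all promoter windows held at least 1 match. For Bhmt these 250 bases take in the stretch shown and bases inside the annotated gene. A match of letters describes these windows and does not show binding.

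Dmgdh was at 145, 176, 180, 193 and 125 FPKM in control and at 155, 97.2, 82.3, 134 and 114 FPKM in ASK1+hep livers. Here ASK1+hep replicates 1 and 4 lay within the control range and the other 3 below it. Dmgdh differed by -0.51 ± 0.19 on the log2 scale (SE, limma adjusted p = 0.812, exact permutation p = 0.0397). Values of further genes nearby were examined after those of Bhmt had been seen. Arsb, the next gene tested beyond Dmgdh, encodes a lysosomal sulfatase and was at 2.01 to 2.65 FPKM in control and 1.07 to 1.98 FPKM in ASK1+hep livers (log2 difference -0.30, exact permutation p = 0.00794). The genes farther out had differences near 0, with -0.03 for Jmy on one side and 0.03 for Lhfpl2 on the other. Gm15622, an antisense transcript inside Bhmt, had 8.24 ± 2.70 FPKM in control and 3.94 ± 5.53 FPKM in ASK1+hep livers (SD, n = 5 each), with 13.7 FPKM in ASK1+hep replicate 1. Whether counting used the strand is not settled by the methods, so reads of Bhmt and of Gm15622 cannot be told apart.

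**Figure D3:**
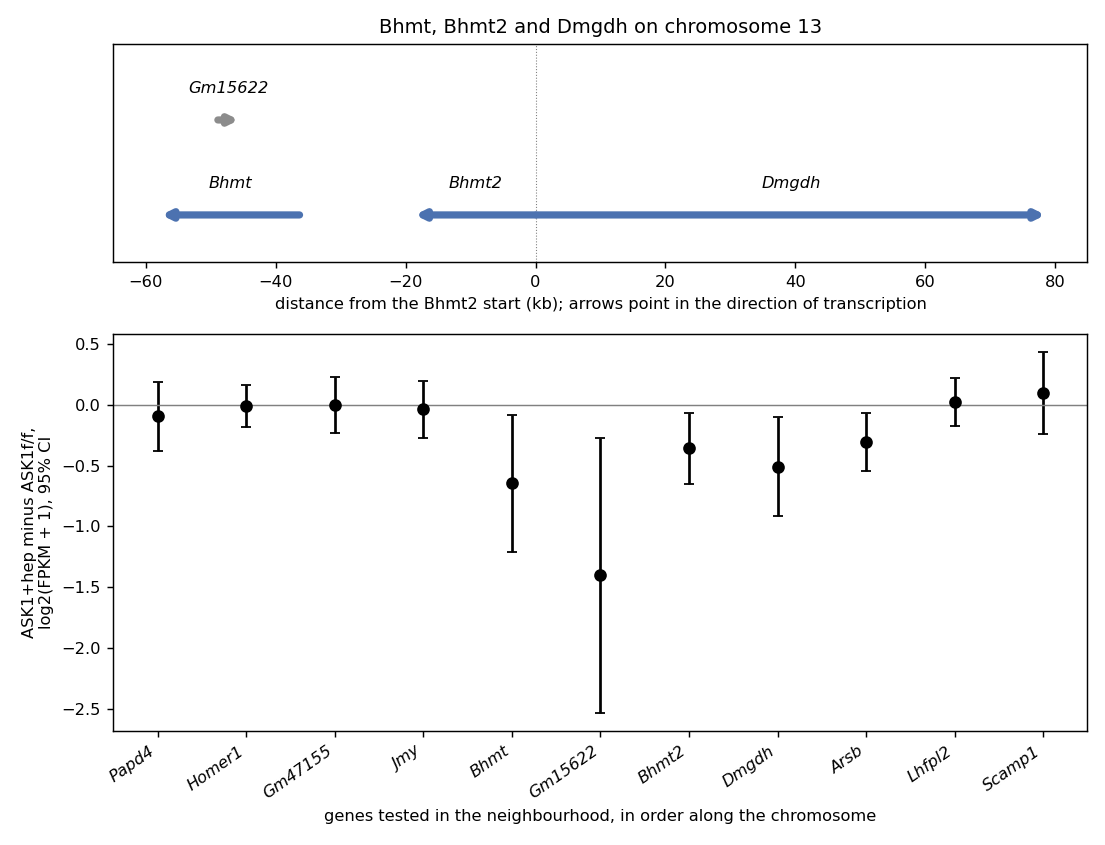
Top, position of Bhmt, Bhmt2, Dmgdh and the antisense Gm15622 as distance from the Bhmt2 start in kilobases. Bottom, log2 difference (ASK1+hep minus ASK1f/f, y axis) with its 95% interval for the 11 genes tested in this neighbourhood in their order along the chromosome; the intervals of Bhmt, Gm15622, Bhmt2, Dmgdh and Arsb lie below 0, and those of the other 6 include 0.

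Bhmt also has processed copies elsewhere in the genome. Of its 50-base transcript stretches 26.1% occur in another gene, mainly Gm5096 and Bhmt-ps1. Gm5096 was at 231 ± 64.2 FPKM in control and 128 ± 59.6 FPKM in ASK1+hep livers (SD, n = 5 each). Reads of both copies made up 5.29% to 10.2% of the reads of Bhmt and its copies, and with them added to Bhmt its log2 difference was -0.67.

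Cbs (ENSMUSG00000024039, chromosome 17, minus strand, 31612623 to 31637199 in the deposited table, with other ends in GENCODE M21) encodes cystathionine beta-synthase, which commits homocysteine to cysteine. It was at 114, 128, 95.3, 95.3 and 123 FPKM in control and at 119, 152, 157, 120 and 95.6 FPKM in ASK1+hep livers. Replicates 2 and 3 of ASK1+hep exceeded all controls and the other 3 lay among them. This gave a log2 difference of 0.20 (95% interval -0.14 to 0.54, limma), of 0.12 without ASK1+hep replicate 3 and of 0.30 without ASK1+hep replicate 5.

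Pemt (ENSMUSG00000000301, chromosome 11, minus strand, 59970614 to 60046489, 7 exons) encodes the enzyme that methylates phosphatidylethanolamine to phosphatidylcholine with SAM. Its level was 155, 163, 143, 141 and 126 FPKM in control and 136, 180, 260, 172 and 106 FPKM in ASK1+hep livers. The ASK1+hep livers held both the lowest and the highest value of the 10. Pemt differed by 0.17 on the log2 scale (95% interval -0.28 to 0.62), and without ASK1+hep replicate 3, the library that stood apart, it was 0.01, whereas without ASK1+hep replicate 5 it was 0.33.

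Nnmt (ENSMUSG00000032271, chromosome 9, minus strand, 48591877 to 48605153, 3 exons) encodes nicotinamide N-methyltransferase, which uses SAM to methylate nicotinamide. It was at 1.79, 146, 115, 82.0 and 142 FPKM in control replicates 1 to 5. In ASK1+hep replicates 1 to 5 it was at 82.5, 64.3, 51.5, 39.1 and 54.4 FPKM. A single control liver, replicate 1, was thus nearly without Nnmt, with 47 reads, while the other 4 controls, all at 82.0 FPKM or more, lay above ASK1+hep replicates 2 to 5. On the log2(FPKM + 1) scale Nnmt in this liver was 3.85 below the next lowest liver, a larger gap than for any other of the 13306 genes in that library, where Cyp3a11 was second with 0.92. Over all livers the log2 difference was 0.04 ± 0.92 (SE, 95% interval -1.98 to 2.05, limma), and the exact permutation test gave p = 0.992. Without ASK1f/f replicate 1 it was -1.05 ± 0.23 (SE, 95% interval -1.56 to -0.54, limma adjusted p = 0.844), and an exact permutation test over the 9 livers gave p = 0.0238. This liver was singled out by its own Nnmt value. Neither the interval nor the p without it is therefore separate support for a difference. Without the library labelled ASK1f/f replicate 5, but with replicate 1, it was 0.37.

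Since Bhmt, Bhmt2 and Nnmt each had replicate 1 on the other side, the livers were also compared within the CC titles, 4 of each genotype. This comparison was chosen after the values had been seen. In these 8 livers the Bhmt level was 750 ± 119 FPKM in control and 372 ± 53.3 FPKM in ASK1+hep livers (mean ± SD), a log2 difference of -1.01 ± 0.19 (SE, limma adjusted p = 0.576). Bhmt2 was at 99.7 ± 12.1 and 72.4 ± 8.01 FPKM (log2 difference -0.45 ± 0.14, limma adjusted p = 0.679). Nnmt was at 121 ± 29.7 and 52.3 ± 10.4 FPKM (log2 difference -1.18 ± 0.22, limma adjusted p = 0.576). In these livers the same 3 genes were lower in each of the 4 ASK1+hep livers than in any of the 4 controls. Each had p = 0.0286 in the exact permutation test, the smallest that 4 against 4 livers allow. Since the comparison left out the livers that had gone the other way for these genes, the separation follows in part from that choice. Neither it nor its p is separate support for a difference. Of all genes tested, 7.11% had an unadjusted p under 0.05 in these 8 livers and 3.77% had groups that did not overlap, while 0 of 13306 passed the adjusted threshold. For the other 6 genes the groups overlapped within the CC titles.

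In the pair with SN titles, which holds 1 liver of each genotype, the values went the other way. Bhmt was higher in the ASK1+hep liver by 0.80 on the log2 scale, Nnmt by 4.91 and Bhmt2 by 0.05. A limma fit with an interaction of genotype and title prefix, which assumes that each lone SN liver varies like the others, gave a difference between SN and CC effects of 1.81 ± 0.42 for Bhmt (SE, limma adjusted p = 1.00) and of 6.09 ± 0.48 for Nnmt (adjusted p = 0.0031). Both had an unadjusted interaction p under 0.05, as did 1.94% of all genes, and Nnmt was the 1 gene of 13306 with an adjusted p at or below 0.05. The title prefix and the individual mouse cannot be told apart here.

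The 9 genes were then compared with each other over the 10 livers, in 36 pairs. Bhmt and Bhmt2 had the highest correlation, with Pearson r = 0.84 (permutation p = 0.00383, adjusted p = 0.125) and Spearman rho = 0.92 (permutation p = 0.0005, adjusted p = 0.018). With the genotype means removed r was 0.72, without the 2 livers farthest from the median of Bhmt it was 0.82, and within the CC titles it was 0.90. Bhmt2 and Ahcy had r = 0.76 (permutation p = 0.0122, adjusted p = 0.147), with 0.78 within the CC titles and 0.85 without the 2 livers farthest from the median of Bhmt2. With the genotype means removed the r of this pair was 0.61. Cbs and Pemt had r = 0.77 (permutation p = 0.00695, adjusted p = 0.125), which dropped to 0.48 without the 2 livers farthest from the median of Cbs and thus rests in part on them. Gnmt and Cbs had r = -0.66 (permutation p = 0.0405, adjusted p = 0.243), which rests on 2 livers, since r was 0.03 without those farthest from the median of Gnmt. For Pearson r 0 of the 36 pairs passed the adjusted threshold, and for Spearman rho Bhmt and Bhmt2 did. The pair of adenosyltransferases, Mat1a and Mat2a, had r = 0.17.

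**Figure D4:**
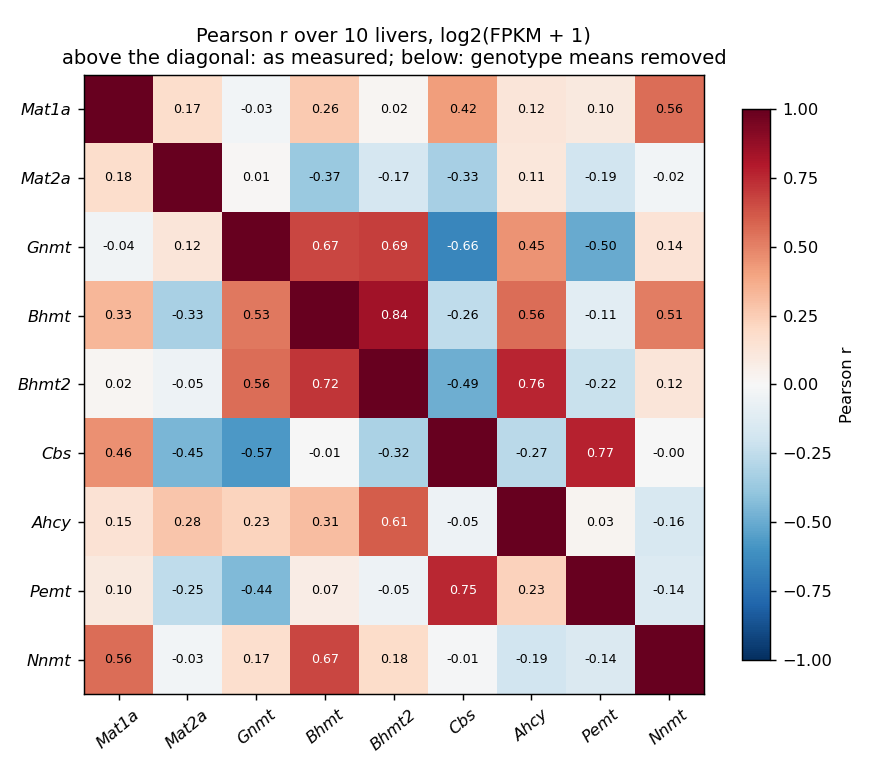
Pearson r between the 9 genes over the 10 livers, on log2(FPKM + 1), as measured (above the diagonal) and with genotype means removed (below). As measured, Gnmt, Bhmt, Bhmt2 and Ahcy correlate positively with each other, with r of 0.84 for Bhmt and Bhmt2. With genotype means removed, r is 0.23 for Gnmt and Ahcy and 0.31 for Bhmt and Ahcy. The r of -0.66 for Gnmt and Cbs becomes 0.03 without 2 livers.

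Genes that are not of the 9 were ranked by how like a member their pattern over the 10 livers was, by Pearson r with genotype means removed. Those most alike are given as a description. Each is the highest r found among the 13306 genes tested, and a search of this size over 10 livers yields high r by itself. No test was made of these values. For Gnmt the closest was Dmgdh with r = 0.97, the dehydrogenase named above. For Pemt the closest were Aup1 and Ctdnep1, both with r = 0.99, and for Cbs they were Pidd1 with 0.98 and Trim3 with 0.96. Mat1a was closest to Fh1 and Alg12 with 0.94 each, Mat2a to Ephx2 with 0.97 and Acadl with 0.93, and Ahcy to Ece1 with 0.95. Bhmt was closest to Trim25 with 0.96 and Bhmt2 to Usp22 and Mfn2 with 0.93 each. For Nnmt the highest value was lower, 0.90 for Sat1. The second place was taken by E2f5 for Gnmt (0.96), Dcaf4 for Bhmt (0.91), 5430416N02Rik for Ahcy (0.93) and Gcnt2 for Nnmt (0.87).

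Genes of the surrounding pathways were examined in 8 lists with 104 genes, of which 97 were tested. Over these lists 8 genes, or 8.25%, had an unadjusted p under 0.05, against 5.77% of all genes, 2 with higher and 6 with lower values in ASK1+hep livers, and 0 passed the adjusted threshold. The median log2 difference of the 97 was -0.03. In ASK1+hep livers 53 of them had lower and 44 higher means, and 52.0% of all genes tested had lower ones. Lower means were found for 7 of 9 genes of methionine synthesis, 6 of 13 of methylation and 7 of 9 of choline oxidation. They were found for 5 of 12 genes of cysteine and glutathione, 4 of 12 of polyamines and 13 of 19 of folate. For nicotinamide and phosphatidylcholine the counts were 6 of 12 and 5 of 11.

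Of the 9 genes for methionine synthesis and control of SAM, such as methionine synthase and its reductase, 1 had an unadjusted p under 0.05. This was Mmachc, which processes vitamin B12 for methionine synthase, with 6.68 to 9.05 FPKM in control and 4.11 to 7.41 FPKM in ASK1+hep livers (log2 difference -0.35, exact permutation p = 0.0238). Its unadjusted limma p rose above 0.05 without ASK1f/f replicate 3 or 4 or ASK1+hep replicate 3 or 4, with differences of -0.34 to -0.24. Besides the 9 members, 13 genes of SAM-dependent methylation were tested, namely methyltransferases and Gatm, which makes the substrate of the methyltransferase Gamt. Of these 1 had such a p, Hnmt, a methyltransferase that inactivates histamine. Hnmt was at 8.78 to 17.3 FPKM in control and at 6.35 to 9.78 FPKM in ASK1+hep livers (log2 difference -0.65 ± 0.17, limma adjusted p = 0.712). Of 9 genes for the oxidation and uptake of choline, betaine and sarcosine, 7 had lower means in ASK1+hep livers, next to 52.0% of all genes tested. Dmgdh alone passed the unadjusted threshold, and the median log2 difference of the list was -0.09.

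Downstream of Cbs, 12 genes of cysteine and glutathione metabolism were tested and 2 had an unadjusted p under 0.05, in opposite directions. Gss, glutathione synthetase, was at 8.48 to 10.96 FPKM in control and at 8.76 to 17.8 FPKM in ASK1+hep livers (log2 difference 0.39), whereas Sqor, which oxidises sulfide, was at 25.5 to 35.7 and 20.2 to 30.2 FPKM (log2 difference -0.33). Of 12 genes for polyamines and methionine salvage, Enoph1, an enzyme of the salvage pathway, had a log2 difference of -0.24 at a level of 0.81 to 1.89 FPKM. The unadjusted limma p of Gss rose above 0.05 without ASK1f/f replicate 1, 2 or 4 or ASK1+hep replicate 2, 3 or 4 (differences of 0.28 to 0.38). For Sqor this was so without ASK1f/f replicate 1, 2, 3 or 4 or ASK1+hep replicate 1, 2 or 3 (-0.33 to -0.26), and for Enoph1 without ASK1f/f replicate 1, 2, 3 or 4 or ASK1+hep replicate 1, 2 or 5 (-0.25 to -0.16). Of 19 folate genes, 13 had lower means, next to 52.0% of all genes tested, and 1, Aldh1l1, had an unadjusted p under 0.05. Aldh1l1, the formyltetrahydrofolate dehydrogenase, was at 233 to 311 FPKM in control and at 180 to 246 FPKM in ASK1+hep livers (log2 difference -0.38, exact permutation p = 0.0159).

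Nnmt consumes nicotinamide, and of 12 genes of nicotinamide and NAD metabolism tested Nmnat1, the nuclear NAD-forming enzyme, had an unadjusted p under 0.05. Nmnat1 was at 3.87 to 4.74 FPKM in control and 4.54 to 8.25 FPKM in ASK1+hep livers (log2 difference 0.31, exact permutation p = 0.0159), and the highest value was that of ASK1+hep replicate 3. Without this liver the difference was 0.19 and the unadjusted limma p no longer under 0.05, which also held without ASK1f/f replicate 1, 2, 3 or 5 or ASK1+hep replicate 2 or 4, with differences of 0.28 to 0.33. Among the 8 genes Hnmt, Dmgdh and Aldh1l1 kept an unadjusted p under 0.05 whichever single liver was left out. Of 11 genes that make phosphatidylcholine and phosphatidylethanolamine by the CDP routes, which run beside Pemt, 0 had an unadjusted p under 0.05 (limma), and their median log2 difference was 0.04.

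**Figure D5:**
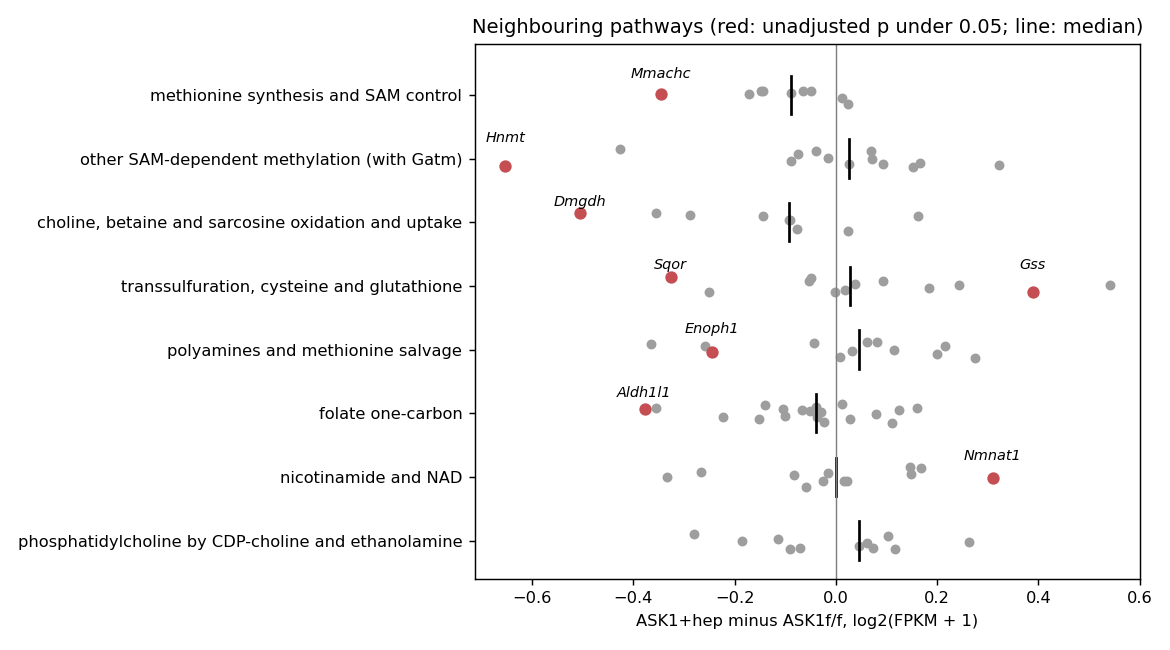
Log2 difference (x axis, ASK1+hep minus ASK1f/f) of each gene tested in the 8 lists of neighbouring pathways, with vertical lines at the list medians and the 8 genes with an unadjusted p under 0.05 in red and named. Most points lie between -0.4 and 0.4, and Hnmt and Dmgdh lie farthest to the left.

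Several of these enzymes differ along the liver lobule, so zone markers are given beside them. Of 10 pericentral markers, 2 had an unadjusted p under 0.05 (limma), both with higher values in ASK1+hep livers, against 5.77% of all genes tested. The median log2 difference of the list was 0.17. Its summed level was 3974 to 5335 FPKM in control and 4881 to 5325 FPKM in ASK1+hep livers. The 2 were Glul, with a log2 difference of 0.42 (exact permutation p = 0.00794), and Oat, with 0.34 (exact permutation p = 0.0476). Of 10 periportal markers, 1, Cyp2f2, had an unadjusted p under 0.05 (limma), with a log2 difference of -0.32 (exact permutation p = 0.0238). The list median was -0.12, and the summed level was 3502 to 4357 FPKM in control and 3057 to 4338 FPKM in ASK1+hep livers. Markers of Kupffer, stellate, endothelial and biliary cells, lymphocytes and neutrophils had 0 of 32 genes tested with an unadjusted p under 0.05 (limma). Their median log2 differences were -0.19 for Kupffer, -0.17 for stellate, -0.21 for endothelial and -0.02 for biliary cells, 0.04 for lymphocytes and -0.05 for neutrophils. Of 6 hepatocyte markers, Ttr had an unadjusted p under 0.05 (limma, log2 difference 0.52), and the list median was 0.26. Adipocyte markers summed to 4.82 to 147 FPKM in control and 3.83 to 160 FPKM in ASK1+hep livers. The lowest control was ASK1f/f replicate 1. In ASK1f/f replicate 1, where Nnmt was low, the pericentral and periportal sums of 4864 and 3730 FPKM lay within the range of the other controls. The part of zonation in the values of Bhmt, Bhmt2 and Nnmt was not tested.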

How the data were processed

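Per the labels, hepatic RNA of 5 ASK1f/f and 5 ASK1+hep mice was sequenced. According to the methods of the study, poly-A RNA was purified, reads were mapped with Hisat2 and counted with FeatureCounts, and the submitters' processing notes name fastp. The authors deposited gene levels as FPKM, and neither the genome build nor the strand setting of the counting is given in the sources used here. Of 54532 genes 54495 were found in GENCODE M21 (GRCm38), 98.3% of them at the same position. In each library the product of FPKM and gene length came in whole steps, to within 4.28e-06 reads for all but the highest values, so that reads were recovered for the filter, the depth of 13367742 to 16163378 reads per library and limma-voom. DESeq2, which the authors used, was not run, although the recovered reads were at hand. Since the deposited values are FPKM, limma on log2(FPKM + 1) was taken as the main test. The number of genes past the threshold here therefore comes from another test than that of the study. The study reports Fgf21 as highly upregulated, and in limma Fgf21 had a log2 difference of 2.06 (adjusted p = 0.355).

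Genotypes were compared with limma 3.58.1 (R 4.3.3) on log2(FPKM + 1) with genotype as the single term, a trended prior variance and p-values adjusted after Benjamini-Hochberg over 13306 genes. At low FPKM this scale shrinks differences. All pairs of libraries differed beyond counting noise (chi-square per degree of freedom 19.4 or more). Single genes were compared with exact two-sided permutation tests, and pairs of genes by permutation with 100000 resamples, or all orders for fewer than 10 livers. Scripts were tested on simulated data. Figures were drawn with matplotlib 3.10.9. Genotypes came from the labels, which do not say more about how the mice were bred or handled, and replicate numbers are those of the library names.

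The members and the gene lists were chosen with earlier results of these data known. Named were the 9 members, each listed pathway gene with an unadjusted p under 0.05, Map3k5 and Fgf21 as checks of the labels, and for each member the 2 genes with the most similar pattern. Genes near Bhmt and copies of members were added after values had been seen. Alternatives were all genes with a read, a minimum of 10 reads in each of the livers, a pseudocount of 0.1, limma-voom either plain or with quality weights, scaling by all reads, the replicate block, the title prefix as a covariate, and leaving out each liver. The CC titles alone, the interaction with the title prefix and the addition of copies were chosen after seeing the data. Of the pathway genes listed, Tmt1a and Tmt1b were not found by name.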

Additional observations from a re-analysis of the deposited data

Results flagged for a closer look

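In groups of 5 livers the highest and the lowest value were compared with their neighbour by Dixon's 95% criterion on the log2(FPKM + 1) scale. Chance alone marks about 1 in 20 groups, and 3 of the 38 groups examined were marked. Nnmt at 1.79 FPKM in ASK1f/f replicate 1 was marked with a gap of 0.856 of the range. Nmnat1 at 8.25 FPKM in ASK1+hep replicate 3, the library that stood apart from the others, was marked with 0.711. The Map3k5 level of the library labelled ASK1f/f replicate 5, 19.8 FPKM, was marked with 0.751.

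Between the pair with SN titles and the 8 livers with CC titles, the genotype difference of Nnmt differed by 6.09 on the log2 scale. This comparison was chosen after the values had been seen. The SN titles hold 1 liver of each genotype, so their spread cannot be measured, and the low control liver is 1 of the 2.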

How the results depend on the processing

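Depth limits these genes little, since apart from the 47 reads of Nnmt in ASK1f/f replicate 1 each value rested on at least 911 reads. The spread between 5 livers sets the precision, as in the interval of -0.42 to 0.41 for Mat1a. Adjusted p-values of the 9 genes lay above 0.05 under each of the 20 alternatives, and Gnmt, Bhmt, Bhmt2, Cbs, Ahcy and Pemt kept their direction in all of them, Bhmt with log2 differences of -1.01 to -0.53 and Bhmt2 of -0.45 to -0.28. The count of members with an unadjusted p under 0.05 was 2, and 1 with the replicate block, under which Bhmt2 alone stayed under 0.05 (limma). When a liver was left out it was 0 to 3, with 3 without ASK1f/f replicate 1, that of pathway genes 4 to 17 against 8, and that of all genes 557 to 1724 against 768. It was 17 and 1724 without ASK1+hep replicate 5, and 4 without ASK1f/f replicate 1, 2, 3 or 4 or ASK1+hep replicate 2 or 3. Without the filter 1222 genes had an unadjusted p under 0.05, since 26389 were then tested. Genes past the adjusted threshold numbered 1 with quality weights and 0 to 1 when a liver was left out, the 1 being without ASK1+hep replicate 5. Pairs of members with an adjusted p at or below 0.05 (Pearson) numbered 0 to 1 when a liver was left out, with 1 without ASK1f/f replicate 1. Nnmt reversed with scaling by all reads (-0.0366) and within the CC titles (-1.18), and ranged from -1.05 to 0.38 when a liver was left out. Mat1a reversed with quality weights (0.0571) and ranged from -0.0816 to 0.149 when a liver was left out, and Mat2a from -0.0207 to 0.164. The cause of these reversals was not tested. Same-numbered livers deviated together with correlations of 0.02 to 0.17, over 0.1 in 2 of 5 pairs. Of the 10 livers, 6 correlated best with their own number. The numbers within the sample titles are adjacent for same-numbered livers of replicates 1 to 4, but not of replicate 5. The labels do not say whether same-numbered livers belong together, and these values do not settle it. Neither the main comparison nor the permutation tests used the replicate numbers, so a pairing, if there was one, was ignored there. With the replicate block the unadjusted limma p was 0.0591 for Bhmt and 0.0406 for Bhmt2.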
